A study of Mus musculus with 8 samples.

Results

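Merkel cells of newborn paw were compared with Merkel cells of newborn back skin across all genes. The comparison holds 4 of the 8 libraries of the study, chosen by their labels: 2 of paw Merkel cells and 2 of back Merkel cells. The other 4 libraries are of epidermal cells labelled IFE, 2 from each site, and served as the reference level for RNA of the surrounding epidermis. All mice were at postnatal day 0 and carried Atoh1-GFP, so the groups differ in skin site and sorted cell type but not in age or genotype. Merkel cells were sorted as positive for GFP and EpCAM and negative for Sca1, the product of Ly6a. IFE cells were sorted as negative for GFP and positive for both surface proteins. The labels name the paw without saying which of its surfaces was taken. Nothing in them says how many animals stand behind a library, or that libraries of one group are biological replicates. The p-values below therefore reflect the variation among these libraries, which may be technical. The title of the study places the work in hairy and glabrous skin, and the comparison asks which transcripts differ between Merkel cells of these 2 sites.

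Merkel cells are touch receptors of the epidermis. They arise from epidermal progenitors that switch on the transcription factor Atoh1, leave the cell cycle as they mature, carry the mechanically gated channel Piezo2 and pass signals to sensory nerve endings through vesicle release. In hairy skin they gather in touch domes beside hair follicles, and in the hairless skin of the paw they sit at the base of the epidermis without follicles.

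The labelled cell type matched its markers in every Merkel library. Krt20, the keratin of Merkel cells, measured 361 and 456 CPM (read counts scaled to a common effective library size) in paw Merkel libraries 1 and 2 and 844 and 982 CPM in back Merkel libraries 1 and 2, against at most 0.543 CPM in any IFE library. Piezo2 measured 525 and 1207 CPM in paw and 1266 and 1301 CPM in back Merkel libraries. The transcription factor Isl1 measured 282 and 407 CPM in paw and 578 and 565 CPM in back. Sox2, another factor of Merkel cells, measured 95.8 and 48.1 CPM in paw and 97.1 and 145 CPM in back. All 4 markers were lower in both paw libraries than in both back libraries, and none passed the test (adjusted p = 0.205 for Krt20, 0.638 for Piezo2, 0.501 for Isl1 and 0.652 for Sox2, edgeR quasi-likelihood test). Genes that entered the sort did not pass either. Atoh1 measured 304 and 284 CPM in paw and 214 and 178 CPM in back, Epcam 317 and 325 CPM in paw and 268 and 267 CPM in back, and Ly6a at most 1.95 CPM in any Merkel library, and the adjusted p of each was at least 0.638.

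Total counts ranged from 11139306 to 19300202 over the 4 Merkel libraries and from 17510481 to 26195076 over the IFE libraries. The 2 paw Merkel libraries correlated at 0.826 (Pearson, log2 CPM over 15151 genes of each library), below the 0.858 between paw Merkel library 1 and back Merkel library 1. One IFE library went against its label in genes of body position. Of 1057 genes for which both paw IFE libraries lay at least 4-fold from back IFE library 1 (0.5 CPM added), the library labelled back IFE 2 lay nearer to paw IFE in 779, or 73.7%, including 13 of 15 Hox genes and 6 of 6 limb patterning genes. These genes were chosen by the distance of back IFE library 1, which favours such a share. By the same rule back IFE 2 lay that far from paw IFE in 196 genes. It correlated at 0.931 and 0.918 with paw IFE libraries 1 and 2 and at 0.897 with back IFE library 1. Whether its label is wrong was not tested. That library therefore stands as the library labelled back IFE 2 below. Back shares of the called genes, the cell cycle list, Krt5, Krt14 and the basal median are given with and without it. So are the IFE differences of called genes and the interaction counts. The fibroblast shares, the ranges of single basal genes and the subtractions of an IFE profile rest on both back IFE libraries.

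Few genes separated the 2 kinds of Merkel cell, and nearly all of these were higher in the paw. Of 15151 genes tested, 28 had an adjusted p under 0.05 (called genes, 0.185% of those tested): 27 were higher (0.178%) and 1 was lower (0.0066%) in paw Merkel cells. At an unadjusted p under 0.05 there were 1025 higher genes (6.77%) and 525 lower genes (3.47%), 10.2% of all genes in either direction. Both paw libraries lay above both back libraries for 2760 genes (18.2%) and below both for 2601 (17.2%). The median log2 fold change over all genes was 0.03. In a fit without back Merkel library 1 only Antxr1 was called, and without back Merkel library 2 only Kntc1, which encodes a kinetochore protein and was chosen after its values were seen. With paw Merkel library 1 or 2 left out the count was 177 (96 higher) or 119 (108 higher), with paw IFE library 1 or 2 left out 58 or 46, with back IFE library 1 left out 103, and with the library labelled back IFE 2 left out 78. DESeq2 called 515 genes, 370 of them higher in paw (71.8% against 96.4% of the 28), while limma-trend on the FPKM values (0.1 added) called 26, of which 8 were higher and 18 lower. Genes given below without a call were chosen after their values were seen, apart from the markers above and the member with the smallest p of each list without a call.

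**Figure D1:**
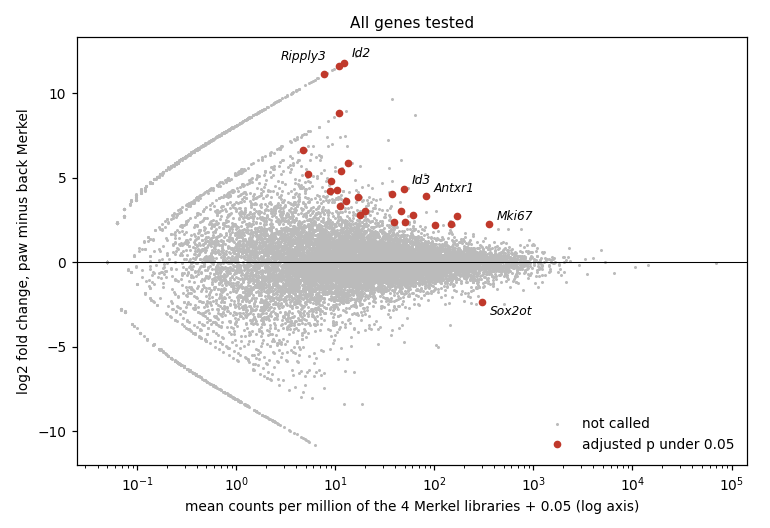
Each point is 1 of 15151 genes, with its mean level over the 4 Merkel libraries (CPM + 0.05, log axis) on the horizontal axis and its log2 fold change, paw minus back Merkel, on the vertical axis. The 28 called genes are red, and 27 of them lie above 0, with Sox2ot the single one below. The curved outer lines are genes with 0 counts in both libraries of one site.

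Of the 37 genes tested from the cell cycle list, 4 were called, all higher in the paw: Mki67, Ccna2, Cenpe and Cenpf. A further 11 called genes are known from cell division but are not on that list, and were grouped here after their values were seen. Mki67, the proliferation antigen that coats mitotic chromosomes, measured 543 and 634 CPM in paw Merkel libraries 1 and 2 and 95.5 and 154 CPM in back Merkel libraries 1 and 2 (log2 fold change 2.24, SE 0.37, adjusted p = 0.0473). Both paw libraries were several times higher than both back libraries, and both lay below the paw IFE libraries (1864 and 1642 CPM). Cenpf, a kinetochore protein, measured 248 and 334 CPM in paw against 31 and 56.2 CPM in back (log2 fold change 2.74, SE 0.4, adjusted p = 0.0336). Cenpe, a kinetochore motor, measured 228 and 258 CPM against 44 and 57.2 CPM (log2 fold change 2.26, SE 0.34, adjusted p = 0.0384). The groups did not overlap for either gene, and the 2 paw libraries were within 1.5-fold of each other.

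Ccna2, the cyclin of S and G2 phase, measured 33.6 and 13.3 CPM in paw and 2.13 and 1.66 CPM in back (log2 fold change 3.62, SE 0.52, adjusted p = 0.0336). Anln, an actin-binding protein of the cleavage furrow, measured 72.2 and 91.9 CPM in paw and 11.5 and 8.3 CPM in back (log2 fold change 3.05, SE 0.34, adjusted p = 0.0163). Dlgap5, a spindle protein, measured 25.3 and 14.4 CPM in paw and 0.761 and 1.27 CPM in back (log2 fold change 4.29, SE 0.69, adjusted p = 0.0429). For each of these the lower paw library was still over 5 times the higher back library. Cks1b, a subunit of cyclin-dependent kinases, measured 18.2 and 16.5 CPM against 0.837 and 0.391 CPM (log2 fold change 4.78, SE 0.75, adjusted p = 0.0429). Esco2, which joins sister chromatids during replication, measured 7.81 and 12.5 CPM against 0.152 and 0.391 CPM (log2 fold change 5.23, SE 0.79, adjusted p = 0.0383).

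The remaining called genes of division were Kif18b, Aspm, Knstrn, Hmmr, Ckap2, Atad2 and Rad54b, which lie outside the naming rule and were chosen after their values were seen. Their log2 fold changes ran from 2.38 for Atad2, a chromatin ATPase, to 6.63 for Kif18b, a mitotic kinesin. Kif18b rested on few reads in the back: 2 counts over both back Merkel libraries against 290 in the paw libraries, a ratio of 107 (95% counting interval 29.3 to 887). This interval and the counting intervals below pool the libraries of a site and treat reads as independent. They leave out variation between libraries. Aspm, a spindle pole protein, measured 82.5 and 87.3 CPM in paw and 18.5 and 13.6 CPM in back. Rad54b, a recombination protein that shares 35.9% of its exonic bases with neighbouring gene models, lost its call without either paw IFE library (adjusted p = 0.0502 with the first left out and 0.0557 with the second left out).

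Over the cell cycle list as a whole, the 4 of 37 called higher stand beside 0.178% of all genes, and none was called lower. At an unadjusted p under 0.05, 20 were higher and none lower, beside 6.77% and 3.47% of all genes, and the median log2 fold change was 1.54 against 0.03 over all genes. The 20 included mitotic kinases and kinesins (Plk1, Kif11) and genes of replication and nucleotide supply (Rrm1, Tyms). Top2a, the decatenating topoisomerase, measured 280.4 and 203 CPM in paw and 17.8 and 71.5 CPM in back (log2 fold change 2.44, SE 0.53, adjusted p = 0.121). Cdca8, a subunit of the chromosomal passenger complex, measured 28.5 and 3.23 CPM and 0.761 and 0.195 CPM (log2 fold change 4.99, SE 0.99, adjusted p = 0.0907). Tk1, thymidine kinase, was the 1 member for which both paw libraries lay below both back libraries, with 8.48 and 9.59 CPM against 14.1 and 18.1 CPM (log2 fold change -0.83, SE 0.51, adjusted p = 0.607). The summed level of the list was 2211 and 2149 CPM in paw Merkel libraries, 487 and 673 CPM in back Merkel libraries and 6410 to 9978 CPM in the 4 IFE libraries. In bulk libraries a larger share of dividing cells and more of these transcripts per cell cannot be told apart.

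Promoters of 4 called genes of division are shown because these genes moved together and because late cell cycle promoters commonly carry CCAAT boxes, bound by NF-Y, and cell cycle homology regions (CHR). Each line gives the 250 bases before the RefSeq start on GRCm38.p6 (mm10), read on the strand of the gene. Capitals mark CCAAT and the CHR words TTTGAA and TTCGAA on either strand, so that CCAAT on the opposite strand reads ATTGG and TTTGAA reads TTCAAA.
Mki67 (chr7:135716380-135716629, minus strand): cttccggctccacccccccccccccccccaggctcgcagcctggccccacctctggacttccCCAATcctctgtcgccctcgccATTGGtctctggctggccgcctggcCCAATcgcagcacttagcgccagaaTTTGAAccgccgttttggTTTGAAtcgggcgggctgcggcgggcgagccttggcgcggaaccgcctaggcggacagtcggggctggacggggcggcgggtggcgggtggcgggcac
Ckap2 (chr8:22185820-22186069, minus strand): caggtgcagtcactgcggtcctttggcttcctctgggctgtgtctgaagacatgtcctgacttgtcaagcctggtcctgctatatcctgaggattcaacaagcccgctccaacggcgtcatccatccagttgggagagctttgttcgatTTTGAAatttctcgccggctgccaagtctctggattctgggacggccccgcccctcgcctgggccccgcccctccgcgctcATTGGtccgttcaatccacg
Hmmr (chr11:40733438-40733687, minus strand): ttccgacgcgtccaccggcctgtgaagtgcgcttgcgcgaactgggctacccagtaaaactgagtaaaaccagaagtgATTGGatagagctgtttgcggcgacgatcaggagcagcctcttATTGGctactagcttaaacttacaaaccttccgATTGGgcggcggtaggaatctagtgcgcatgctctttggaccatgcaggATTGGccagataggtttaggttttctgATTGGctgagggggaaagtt
Cenpf (chr1:189688087-189688336, minus strand): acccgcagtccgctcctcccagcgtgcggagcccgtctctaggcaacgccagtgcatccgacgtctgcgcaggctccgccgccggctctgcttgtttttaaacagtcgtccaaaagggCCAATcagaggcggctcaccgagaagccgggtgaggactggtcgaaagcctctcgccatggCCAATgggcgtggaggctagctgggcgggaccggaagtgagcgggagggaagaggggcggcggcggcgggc

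Mki67 held 3 CCAAT and 2 CHR words in this window, Ckap2 held 1 of each, Hmmr held 5 CCAAT and Cenpf held 2 CCAAT. The 4 shown thus all held CCAAT, while the promoters of Anln and Knstrn, also called genes of division, held neither word. RefSeq gave a promoter for 18 of the 27 genes called higher. Of these 18, 11 held CCAAT (61.1%), beside 35.7% of 11500 promoters of tested genes and 34.5% of all 27025 promoters. The 11 include Id2, Krt24 and Sdc1, which are not among the genes of division. CHR words were in 4 of the 18, or 22.2%, beside 12.3% of the promoters of tested genes. The E2F words TTTCCCGC, TTTGGCGC, TTTCGCGC and TTTGCCGC were in none of the 18 and in 3.17% of the promoters of tested genes. In the cell cycle list CCAAT was in 24 of 31 promoters (77.4%), CHR in 9 (29.0%) and an E2F word in 4 (12.9%). All words were searched on both strands, and no marked match overlaps one of another motif. These are matches of letters, not measured sites.

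Of the Id genes, Id2 and Id3 were higher in paw Merkel cells, and there they exceeded the level of paw IFE cells. Id proteins bind basic helix-loop-helix factors and keep them from DNA, and their genes are common targets of bone morphogenetic protein (BMP) signals. Id2 (chromosome 12, 25093799 to 25097140, minus strand, mm10, as for all positions here from GENCODE vM21) measured 31.7 and 16.9 CPM in paw Merkel libraries 1 and 2 and had no count in either back Merkel library (adjusted p = 0.0429). Against a floor of 3 counts over both back libraries, it was at least 207-fold higher in paw Merkel cells, a bound that covers counting error only and was 132-fold with paw library 2 alone. Id2 measured 3.83 and 12.7 CPM in paw IFE libraries and 9.01 and 13.4 CPM in back IFE libraries. Both paw Merkel libraries were above every IFE library for this gene, and the back Merkel libraries were below every one.

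Id3 (chromosome 4, 136143497 to 136145755, plus strand) measured 101 and 85.2 CPM in paw and 6.09 and 3.03 CPM in back Merkel libraries (log2 fold change 4.35, SE 0.7, adjusted p = 0.0429), with 40.5 and 50.2 CPM in paw IFE. Id1 and Id4 had the same order without passing the test. Id1 measured 14.6 and 12.4 CPM in paw Merkel libraries against 0 and 0.0977 CPM in back (adjusted p = 0.128), and Id4 measured 46.3 and 52.1 CPM against 8.9 and 10.6 CPM (adjusted p = 0.373). For all 4 Id genes both paw Merkel libraries lay above both back Merkel libraries and above both paw IFE libraries. Of 26 tested members of the BMP list, Id2 and Id3 were the only ones called (0.178% of all genes were called higher). At an unadjusted p under 0.05, 9 were higher and none lower, beside 6.77% and 3.47% of all genes, and the median log2 fold change was 0.83. Among receptors, Bmpr1a measured 370.2 and 509.5 CPM in paw and 235 and 267 CPM in back (adjusted p = 0.384).

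Gli3, the hedgehog pathway factor that acts mainly as a repressor when no ligand is bound, was higher in paw Merkel cells. It measured 34.9 and 9.4 CPM in paw and 0.456 and 0.586 CPM in back Merkel libraries (log2 fold change 5.41, SE 0.76, adjusted p = 0.0336), while IFE libraries held 131 and 74.8 CPM in paw and 79.8 and 96.5 CPM in back. The 2 paw libraries differed from each other by over 3-fold, and the lower one was still over 10 times either back library. Gli3 was the only called member of the 16 tested in the hedgehog list, beside 0.178% of all genes called higher. At an unadjusted p under 0.05, 6 members were higher and none lower, beside 6.77% and 3.47% of all genes, and the median log2 fold change was 0.99. The co-receptors Boc (57.5 and 26.7 CPM in paw, 4.72 and 5.67 CPM in back, adjusted p = 0.121) and Cdon (214 and 248 CPM, 69.4 and 62.7 CPM, adjusted p = 0.122) were among them. Ptch1, the receptor and a target of the pathway, had the opposite order, with 144 and 216 CPM in paw and 291 and 458 CPM in back Merkel libraries (adjusted p = 0.539).

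Other called genes encode developmental regulators and surface proteins. Antxr1 (chromosome 6, 87133853 to 87335821, minus strand), a cell surface receptor that binds collagen, had the smallest p of all genes. It measured 173 and 135 CPM in paw and 13.6 and 6.74 CPM in back Merkel libraries (log2 fold change 3.91, SE 0.41, adjusted p = 0.0156), and 407 and 339 CPM in paw IFE and 557 and 549 CPM in back IFE libraries. Back Merkel cells were thus far below both paw Merkel cells and the epidermis of their own site. Sox6, a SoxD transcription factor, measured 120.1 and 90.9 CPM in paw and 19.5 and 10.8 CPM in back (log2 fold change 2.8, SE 0.39, adjusted p = 0.0336). Ripply3 (chromosome 16, 94328420 to 94336935, plus strand), a repressor that partners T-box factors, measured 24 and 19.1 CPM in paw and had no count in the back Merkel libraries (adjusted p = 0.0336), which makes it at least 174-fold higher against the same floor of 3 counts over both back libraries. Its level in paw IFE was 12.4 and 10 CPM, below both paw Merkel libraries.

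Slc35g1, a solute carrier of the endoplasmic reticulum membrane, had 1 count over both back Merkel libraries against 693 in the paw, a ratio of 511 (95% counting interval 91.4 to 20211). Krt24, a type I keratin, measured 37.8 and 14.5 CPM in paw and 0.304 and 0.586 CPM in back (log2 fold change 5.88, SE 0.94, adjusted p = 0.0429). Sdc1, the heparan sulfate proteoglycan of epithelial cells, was called as well and lies outside the naming rule. It measured 149 and 184 CPM in paw and 28.8 and 43.5 CPM in back (log2 fold change 2.2, SE 0.35, adjusted p = 0.0429).

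Of matrix genes, 3 were called. Dcn, the small proteoglycan decorin, measured 86.1 and 55.5 CPM in paw and 5.1 and 3.61 CPM in back Merkel libraries (log2 fold change 4.02, SE 0.58, adjusted p = 0.0336), with 229.6 and 164 CPM in paw IFE. Col6a1 measured 23.9 and 6.64 CPM in paw and had no count in back Merkel libraries, at least 140.1-fold higher in paw against the floor (adjusted p = 0.0473). With paw library 2 alone against the same floor the bound was 51.8-fold, and with paw library 1 alone 186-fold. Col5a2, outside the naming rule, measured 34 and 30 CPM and 3.04 and 1.27 CPM (adjusted p = 0.0487). Dcn and Col6a1 were on the list of fibroblast markers, of which 2 of 11 tested members were called higher and none lower, 5 were higher and 1 lower at an unadjusted p under 0.05, and the median log2 fold change was 3.05 (0.178%, 6.77% and 3.47% of all genes, and a median of 0.03). Of the 16 markers on the list, Col6a3, Lum, Twist1, Twist2 and Dpt had no count in any Merkel library. Col3a1 had the order of the called matrix genes without passing, at 13.4 and 6.36 CPM in paw and 0.228 and 0.195 CPM in back (log2 fold change 5.49, adjusted p = 0.16). As a share of the IFE level of the same site, the median over the list was 13.2% and 3.40% in paw and 0.224% and 1.44% in back Merkel libraries. The back shares rest on both back IFE libraries, which differed in these genes. Dcn measured 60.6 CPM and Col3a1 8.09 CPM in back IFE library 1, against 181 and 195 CPM in the library labelled back IFE 2. Col1a1 was at or below 0.719 CPM in each Merkel library, and Col1a2 had the opposite order, with 32.1 and 23.8 CPM in paw and 165 and 74 CPM in back (adjusted p = 0.18). The summed level of all 16 markers was 219.6 and 129.6 CPM in paw Merkel libraries, 204 and 159 CPM in back Merkel libraries and 806 to 1645 CPM in IFE libraries, with Col1a2 a large share of the back sums. The part of fibroblast RNA in the called matrix genes was not tested.

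**Figure D2:**
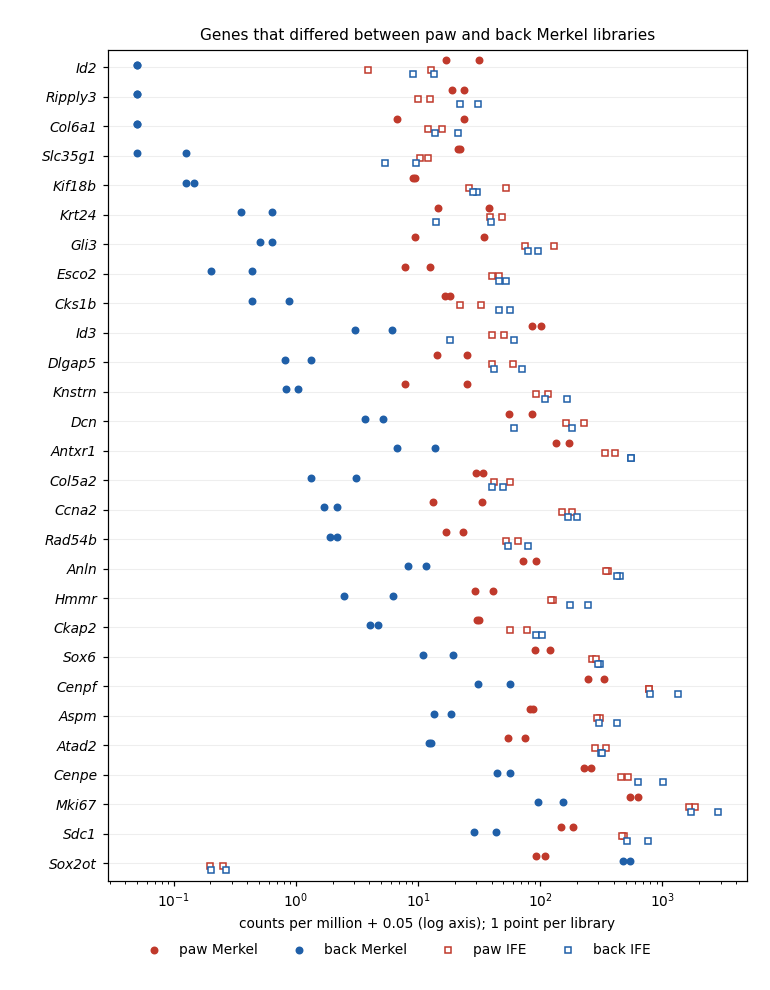
CPM + 0.05 on a log axis for the 28 called genes, ordered by fold change, with 1 point per library: filled circles for Merkel and open squares for IFE libraries, red for paw and blue for back. In 27 genes both paw Merkel points lie right of both back Merkel points, and for 22 of these the paw IFE squares lie further right still. Points at the left edge of Id2, Ripply3 and Col6a1 are back Merkel libraries with 0 counts.

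Nearly all of the called genes are also expressed by the surrounding epidermis, so each difference was set beside the IFE level of the same site. For 22 of the 27 genes called higher, the mean paw IFE level was above the mean paw Merkel level, and in these 22 both paw IFE libraries were above both paw Merkel libraries. For the other 5 (Id2, Id3, Ripply3, Slc35g1 and Col6a1) it was between 10% and 100% of the paw Merkel level, and for none was it under 10%. The 27 genes stood at a median of 43.5% and 36.2% of the mean paw IFE level in paw Merkel libraries 1 and 2, and at 2.46% and 2.27% of the mean back IFE level in back Merkel libraries 1 and 2. Against back IFE library 1 alone the back medians were 2.44% and 2.50%. These genes were chosen for being high in paw Merkel libraries. The whole cell cycle list, most of it not called, stood at a median of 31.0% and 15.9% in paw Merkel libraries 1 and 2 and at 7.68% and 6.76% in back Merkel libraries 1 and 2 (8.38% and 7.47% against back IFE library 1 alone). Between the IFE groups themselves these genes differed little: the log2 difference, paw minus back IFE, lay between -1.24 and 0.71 for the 27, and 26 of them were within 1 of 0. Without the library labelled back IFE 2 it lay between -1.47 and 1.70, and 22 were within 1 of 0. The other 5 were then Dcn (1.70), Krt24 (1.65), Id3 (1.31), Cks1b (-1.05) and Ripply3 (-1.47).

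Genes of basal keratinocytes served as a measure of epidermal RNA in each Merkel library, although Merkel cells may express some of them as well. Krt5, the main keratin of the basal layer, stood at 8.93% and 3.79% of the paw IFE level in paw Merkel libraries 1 and 2, and at 1.98% and 2.58% of the back IFE level in back Merkel libraries. Its partner Krt14 stood at 14.2%, 6.58%, 2.05% and 3.20%, in the same order. The 27 genes called higher were chosen by their difference between paw and back Merkel libraries, which shapes the counts that follow. All 27 exceeded the Krt5 and the Krt14 percentage in both paw Merkel libraries. In back Merkel libraries 1 and 2, 14 and 13 of them exceeded that of Krt5, and 14 and 9 that of Krt14. The median over 26 basal keratinocyte genes was higher than that of the 2 keratins, 23.9% and 22.4% in paw and 10.8% and 13.1% in back Merkel libraries, and 22 and 24 of the 27 called genes exceeded it in paw libraries 1 and 2, against 1 and 0 in back libraries. The cell cycle median was thus above the basal median in paw library 1 and below it in paw library 2 and in both back libraries. Against back IFE library 1 alone, back Merkel libraries 1 and 2 stood at 1.57% and 2.05% for Krt5, 1.76% and 2.76% for Krt14 and 11.2% and 13.9% for the basal median. The called genes above these were then 16 and 15 for Krt5, 16 and 13 for Krt14, and 1 and 1 for the basal median. The single basal genes spread widely, from 8.88% (Dsg3) to 153.8% (Lgals7) in paw Merkel library 1 and from 0% (Pdpn) to 144.8% (Lgals7) in library 2. In back Merkel library 1 they ran from 0% (Pdpn) to 361.3% (Cdh3), and in library 2 from 0.473% (Pdpn) to 192.7% (Cdh3). Cdh3 and Tfap2a were above the IFE level of their site in every Merkel library.

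**Figure D3:**
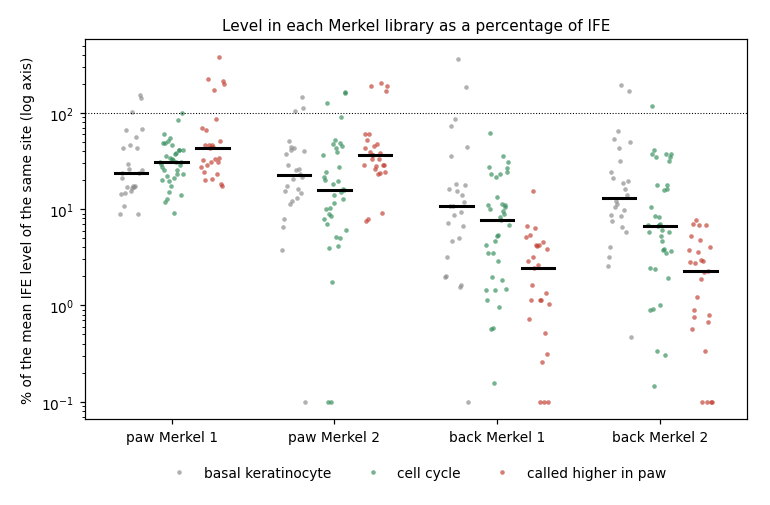
Level of single genes in each Merkel library as a percentage of the mean IFE level of the same site (log axis, dotted line at 100%), with the median as a black bar and values under 0.1% drawn at 0.1%. The called genes (red) have medians of 43.5% and 36.2% in paw Merkel libraries and 2.46% and 2.27% in back Merkel libraries, while basal keratinocyte genes (grey) have 23.9%, 22.4%, 10.8% and 13.1%. The red points were chosen by the difference that they show.

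Of 26 basal keratinocyte genes tested, none was called. At an unadjusted p under 0.05, 15 were higher and 1 lower in paw Merkel libraries, beside 6.77% and 3.47% of all genes. The median log2 fold change was 1.01, and 0.54 without paw Merkel library 1. Col7a1, the anchoring fibril collagen, had the smallest p of the list, with 147 and 203 CPM in paw and 58.4 and 65.8 CPM in back (log2 fold change 1.5, SE 0.33, adjusted p = 0.121). Krt15 measured 473 and 180.0 CPM in paw and 114 and 145 CPM in back, and Trp63, the master regulator of stratified epithelia, measured 366 and 238 CPM and 149 and 182 CPM (adjusted p = 0.31 and 0.38). Lamb3, a chain of the laminin of the basement membrane, had the opposite order, with 61.3 and 16 CPM against 155 and 116 CPM, while Lama3 of the same protein measured 175 and 293 CPM against 73.4 and 93.6 CPM (adjusted p = 0.267 and 0.128). When the basal median share of each Merkel library times the IFE profile of its site was subtracted, 69 genes were called, 43 of them higher, and 14 of the 28 remained among them. With the share taken from Krt5 and Krt14 instead, a choice made after the data were seen, 11 genes were called and 7 of the 28 remained.

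Some genes of body position separated the 2 Merkel groups by wide margins, yet none passed in the fit over all 8 libraries. Hox genes encode position along the body axis, with the high-numbered members marking the limbs and tail. Hoxc10 (chromosome 15, 102966796 to 102971893, plus strand) measured 66.6 and 82.3 CPM in paw Merkel libraries and 0.0761 and 0.0977 CPM in back Merkel libraries, which is 2283 against 2 counts and a ratio of 842 (95% counting interval 233 to 6954). It measured 62.3 and 73.4 CPM in paw IFE libraries, 0 CPM in back IFE library 1 and 83.9 CPM in the library labelled back IFE 2. Its adjusted p (edgeR) was 0.178 with all libraries and 0.012 in a fit of the 4 Merkel libraries alone. The log2 fold change lay between 9.62 and 9.65 in these fits. In all fits here that leave out 1 library, the lone library of its group is assumed to vary like the other groups.

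Hoxb3, a low-numbered member, ran the other way: 9.68 and 3.87 CPM in paw Merkel libraries and 179 and 226 CPM in back Merkel libraries, with 48.6 CPM in back IFE library 1 and 3.21 CPM in the library labelled back IFE 2. Its adjusted p (edgeR) was 0.124 with all libraries and 0.026 with Merkel libraries alone. It shares 52.9% of its exonic bases with an antisense gene model, and the strand setting of the counting is not given. Hoxb7 measured 0.144 and 0 CPM in paw and 14.7 and 15.9 CPM in back Merkel libraries (adjusted p = 0.116). Over 28 tested Hox genes none was called, 4 were higher and 8 lower at an unadjusted p under 0.05 (6.77% and 3.47% of all genes), and the median log2 fold change was 0.05. The 4 higher ones were all of the C cluster: Hoxc8, Hoxc9, Hoxc10 and Hoxc12. The 8 lower ones were Hoxa2, Hoxa4, Hoxa5, Hoxa6, Hoxb2, Hoxb3, Hoxb5 and Hoxb7. Of the 28, both paw Merkel libraries lay above both back Merkel libraries for 6 and below both for 12, beside 18.2% and 17.2% of all genes. Of the 39 Hox genes on the list, 12 had no count in any Merkel library of either site. Among these 12 were the high-numbered Hoxa11, Hoxa13, Hoxb13, Hoxd9, Hoxd10, Hoxd11, Hoxd12 and Hoxd13.

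Of 25 limb patterning genes on the list, Tbx5, Msx1, Hand2 and Fgf8 had no count in any Merkel library. Over the 17 tested members the median log2 fold change was 1.77. None was called, 5 were higher and none lower at an unadjusted p under 0.05 (6.77% and 3.47% of all genes), and for 12 both paw libraries lay above both back libraries (18.2% of all genes). Tbx3, a T-box factor of limb and skin, measured 145 and 59.8 CPM in paw and 4.18 and 5.57 CPM in back Merkel libraries. Its adjusted p (edgeR) was 0.084 over all libraries and 0.0845 with Merkel libraries alone. Some of the 21 alternative fits did call Tbx3, and over them its log2 fold change lay between 3.51 and 13.6. Each of En1, Sp8 and Tbx15 below was likewise called in some of the alternatives. En1, which marks the ventral side of the limb, measured 11.3 and 21.7 CPM in paw and 0.0761 and 0.195 CPM in back (edgeR adjusted p = 0.307, and 0.302 with Merkel libraries alone). Sp8, a factor of the limb ridge, measured 10 and 4.24 CPM in paw and had no count in the back (edgeR adjusted p = 0.25, and 0.406 with Merkel libraries alone). Tbx15 measured 9.01 and 6.45 CPM against 0 and 0.0977 CPM (edgeR adjusted p = 0.306, and 0.451 with Merkel libraries alone). Paw IFE libraries held 126 and 99.2 CPM of Tbx3, 24.7 and 27.3 CPM of En1, 38.2 and 29.3 CPM of Sp8 and 37.3 and 15.1 CPM of Tbx15. The mean paw Merkel level was 90.9%, 63.3%, 21.1% and 29.5% of the mean paw IFE level, in the same order. The part of epidermal RNA in these differences was not tested.

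Krt9, the keratin of palm and sole epidermis, followed the same order. It measured 110.4 and 69.1 CPM in paw and 2.05 and 0.586 CPM in back Merkel libraries, beside 191 and 309 CPM in paw IFE, 7.11 CPM in back IFE library 1 and 307 CPM in the library labelled back IFE 2. Its adjusted p (edgeR) was 0.128 over all libraries and 0.0488 with Merkel libraries alone. Of 8 tested palmoplantar and stress keratins none was called, and 3 were higher and none lower at an unadjusted p under 0.05, beside 6.77% and 3.47% of all genes. The fit of Merkel libraries alone called 5 genes in all, none of them among the 28: Hoxc10, Krt9 and Kcnn3 higher, and Hoxb3 and Igf1 lower. Kcnn3, a calcium-activated potassium channel, measured 60.9 and 75.5 CPM in paw and 0.685 and 0.195 CPM in back Merkel libraries. Igf1, the insulin-like growth factor, measured 8.58 and 4.61 CPM in paw and 209.7 and 216 CPM in back, with at most 5.69 CPM in any IFE library.

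**Figure D4:**
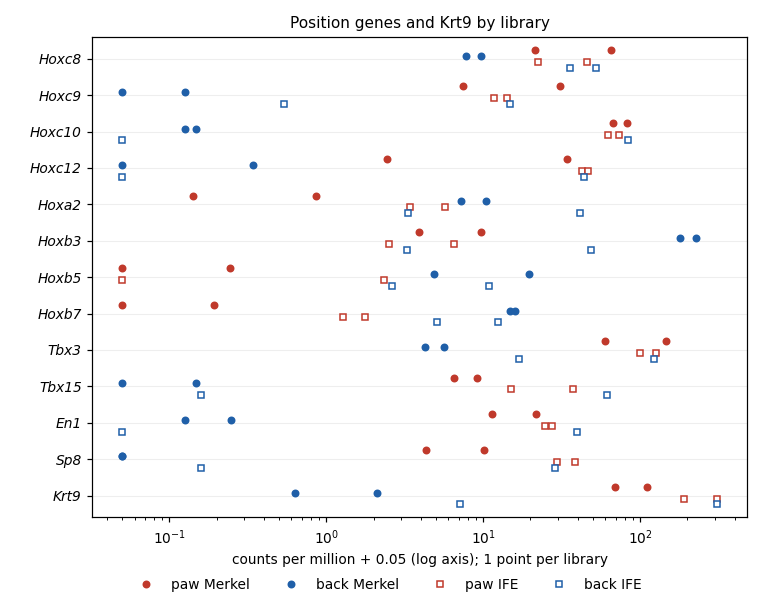
CPM + 0.05 (log axis) of 8 Hox genes, 4 limb patterning genes and Krt9 in each of the 8 libraries, with filled circles for Merkel, open squares for IFE, red for paw and blue for back. The paw and back Merkel circles are apart in every gene drawn, which were chosen after their values were seen, while 1 of the 2 blue squares, the library labelled back IFE 2, sits with the paw libraries for Hoxc10, En1, Sp8 and Krt9.

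The single gene called lower in paw Merkel cells was Sox2ot, a long noncoding RNA (chromosome 3, 34104270 to 34682619, plus strand) whose transcribed region holds Sox2 on the same strand. It measured 92.3 and 109.9 CPM in paw and 478 and 539 CPM in back Merkel libraries (log2 fold change -2.33, SE 0.34, adjusted p = 0.0336), and at most 0.217 CPM in any IFE library, under 10% of the back Merkel level. Sox2 within it had a log2 fold change of -0.75 with an adjusted p of 0.652. In GENCODE the exons of Sox2ot share 5.1% of their bases with other gene models, Sox2 not among them, and how the authors counted such overlaps is not given in the sources used here. Beside it, the genes with the smallest p among lower genes were Smyd3, a lysine methyltransferase, with 35.9 and 42.1 CPM against 266 and 162 CPM (adjusted p = 0.0684), and Negr1, a neuronal adhesion protein, with 4.41 and 2.77 CPM against 56.5 and 82.7 CPM (adjusted p = 0.0717).

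In 4 lists of neuronal genes, more members were lower than higher in the paw, and none was called. Some members, such as Tenm2 below, were higher in IFE than in Merkel libraries. Of 36 vesicle release genes none was higher and 6 were lower at an unadjusted p under 0.05, beside 6.77% and 3.47% of all genes. For 15 both paw libraries lay below both back libraries (17.2% of all genes) and for 1 above, and the median log2 fold change was -0.55. Sv2c, a synaptic vesicle glycoprotein, measured 197 and 272 CPM in paw and 478 and 602 CPM in back (adjusted p = 0.236). Rims2, an organiser of the active zone, measured 43.3 and 117 CPM against 319.6 and 264 CPM (adjusted p = 0.329). Rab3c, a vesicle GTPase, measured 659 and 1671 CPM against 1723 and 1736 CPM, so that paw library 2 reached nearly the back level while paw library 1 did not (adjusted p = 0.656).

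Of 30 voltage-gated channel genes 14 had both paw libraries below both back libraries and 3 above, beside 17.2% and 18.2% of all genes. At an unadjusted p under 0.05 (edgeR) 4 were lower and none was higher, beside 3.47% and 6.77% of all genes. The median log2 fold change was -0.88. The same shares of all genes apply to the next 2 lists. Cacna1e, an R-type calcium channel, measured 38.1 and 2.4 CPM in paw and 253 and 275 CPM in back (adjusted p = 0.333). Of 14 neuropeptide and prohormone genes 8 had both paw libraries lower and 1 higher (4 and 1 at an unadjusted p under 0.05), with a median of -0.91. Chgb, a granin of dense-core vesicles, measured 76.2 and 230.3 CPM in paw and 1003 and 688 CPM in back, with an adjusted p of 0.0857 over all libraries, 0.0191 without back IFE library 1 and 0.0287 without the library labelled back IFE 2. Its relative Chga measured 42.7 and 50.5 CPM and 138 and 98.3 CPM, and Penk, the enkephalin precursor, 284 and 81.8 CPM and 475 and 394 CPM (adjusted p = 0.464 and 0.47). Of 34 neuronal adhesion genes 15 had both paw libraries lower and 6 higher (9 and 4 at an unadjusted p under 0.05), with a median of -0.72. The 6 higher were near the 18.2% of all genes. The member with the smallest p was Tenm2, a teneurin, with 57.8 and 58.3 CPM in paw and 18.8 and 18.5 CPM in back (adjusted p = 0.0907, edgeR). Tenm2 was higher in IFE libraries, at 248 and 209 CPM in paw IFE and 354 and 290 CPM in back IFE. The synaptic adhesion gene Lrrtm4, which shares 25.1% of its exonic bases with another gene model, measured 12 and 17.4 CPM in paw and 121 and 69.2 CPM in back, and Cadm1 had the opposite order with 78.6 and 81 CPM and 25.1 and 7.62 CPM (adjusted p = 0.201 and 0.221, edgeR). Cadm1 measured 74.9 and 42.3 CPM in paw IFE and 29.3 and 53.8 CPM in back IFE libraries. The part of epidermal RNA in the Tenm2 and Cadm1 values was not tested.

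Of 27 tested Merkel identity genes none was called, and the median log2 fold change was 0.13. For 8 both paw libraries lay above both back libraries and for 11 below, beside 18.2% and 17.2% of all genes. At an unadjusted p under 0.05 (edgeR), 1 was higher and 3 were lower, beside 6.77% and 3.47% of all genes. The keratin pair Krt8 and Krt18 measured 624 and 240.1 CPM and 101 and 105 CPM in paw, against 282 and 173 CPM and 46.1 and 35.8 CPM in back (adjusted p = 0.725 and 0.73). The summed level of the vesicle release list was 4476 and 8659 CPM in paw Merkel libraries 1 and 2 against 9363 and 10173 CPM in back Merkel libraries, so paw library 1 was the lowest. Paw Merkel library 1 also held the most Krt5 of the 4 Merkel libraries, and the part of epidermal RNA in these lower levels was not tested.

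**Figure D5:**
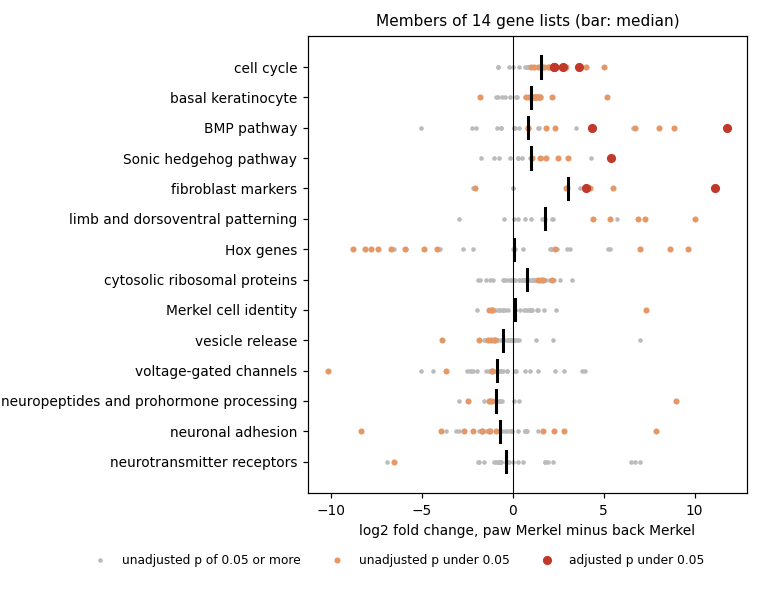
Log2 fold change, paw minus back Merkel, of each tested member of 14 gene lists, with the list median as a black bar, orange for an unadjusted p under 0.05 and red for an adjusted p under 0.05. The cell cycle and basal keratinocyte medians lie at 1.54 and 1.01, and the vesicle release, channel, neuropeptide and adhesion medians at -0.55, -0.88, -0.91 and -0.72.

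Whether a site difference in Merkel cells exceeded that in IFE cells was tested as an interaction in the same fit. No gene passed (0%), with 5.4% of genes higher and 3.61% lower at an unadjusted p under 0.05. DESeq2 called 274 interaction genes. Between paw and back IFE no gene passed either (0%), with 2.01% higher and 2.23% lower at an unadjusted p under 0.05, or 4.24% together. The smallest adjusted interaction p was 0.06, for Antxr1. All 27 genes called higher had an unadjusted interaction p under 0.05, with adjusted values up to 0.258. The interaction contains the same Merkel difference by which these 27 were chosen, so their small unadjusted values are not separate support. Without the library labelled back IFE 2, 41 genes passed the interaction test, among them Antxr1, Anln, Ripply3, Hmmr and Knstrn of the 28, and 67 genes passed between paw and back IFE. Without back IFE library 1, 25 passed the interaction test, 11 of them among the 28.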

How the data were processed

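The 8 libraries were grouped by skin site and sorted cell type from their labels. The authors deposited whole-number gene counts per library (24538 gene rows) and FPKM values (24453 rows). Per the submitters' processing notes, mm10, TopHat2 2.0.13, Cufflinks 2.2.1, featureCounts, Subread 1.4.6 and DESeq2 1.6.3 were used. Per the labels' protocols, RNA was amplified before library construction, so counts are not independent molecules. Annotation and strand setting are not given in the sources used here.

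Counts were fitted with edgeR 4.0.16 (R 4.3.3): filterByExpr by group (15151 genes), TMM, 1 mean per group over 8 libraries (4 residual degrees of freedom), glmQLFit and glmQLFTest, Benjamini-Hochberg adjustment over all genes, threshold 0.05. Checks used DESeq2 1.42.0 and limma 3.58.1. Scripts were tested on simulated data.

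Members and the 33 gene lists were chosen with earlier results of these data known. Named genes were a marker panel, the 10 largest changes per direction among non-overlapping called genes of at least 10 CPM, up to 3 called members per list (else the smallest p), called genes with IFE under 10% of the Merkel level or above it, and genes marked as chosen later. Replicates of a group differed beyond sampling noise.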

Additional observations from a re-analysis of the deposited data

How the results depend on the processing

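Against 28 genes called between paw and back Merkel cells (27 higher, 1 lower), DESeq2 called 515 (370 higher, 145 lower; 71.8% higher against 96.4%), library totals 17 (16 higher), no filter 452 (346 and 106; 76.5% higher), a stricter filter 15 (14 higher), the 4 Merkel libraries alone 5 (3 and 2; 60% higher), limma-trend 0 lower, FPKM with a pseudocount of 0.1 8 higher and 18 lower, and of 1 15 (4 and 11; 30.8% and 26.7% higher). Subtraction of a basal keratinocyte share gave 69 (43 and 26; 62.3% higher), and by Krt5 and Krt14, chosen after seeing the data, 11 (9 and 2; 81.8% higher). Replicate numbers did not pair the libraries (correlations of deviations -0.0427 to 0.0845), and the replicate block gave 41 (38 and 3), 4 in the interaction and 1 between IFE groups. Leaving out 1 library gave 1 to 177 calls (higher 1 to 108, lower 0 to 81), and the lowest counts came without a back Merkel library: 27 of the 28 calls were lost without the first (Antxr1 stayed) and all 28 without the second. With an IFE library left out, Rad54b alone lost its call, without either paw one. The interaction, 0 in the fit reported, gave 274 with DESeq2, 1 with RLE size factors, 305 without a filter, 46 and 3 after the 2 subtractions and 0 to 41 without 1 library. The IFE comparison, also 0, gave 120 without a filter and 0 to 67 without 1 library. Over genes named and alternatives, called genes kept side and direction in 380 values and lost the call in 208, with 0 reversals, and others gave 189 gained calls. Reversals were in uncalled genes: Notch1 at -8.674 and -0.127 after the 2 subtractions, Ly6a at 0.019 with library totals, and, without single libraries, Krt2 at -0.655 to 9.729, Mylpf at -3.599 to 8.656, Pmp22 at -5.733 to 8.535, Alas2 at -0.439 to 1.612 and Ly6a at -7.227 to 2.044; the causes were not tested. The median of all genes, 0.0342, moved by over 0.1 without back Merkel library 1, to 0.225, and without paw Merkel library 1, to -0.0889. Depth limits genes with 0 to 2 back Merkel counts to bounds or wide intervals.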

Other observations

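In the lists below no member was called. Of 38 WNT pathway genes, 10 were higher and 1 lower at an unadjusted p under 0.05 (6.77% and 3.47% of all genes), with a median log2 fold change of 0.73. Wnt10b, a WNT ligand of skin, measured 112 and 18 CPM in paw and 5.63 and 1.56 CPM in back Merkel libraries (adjusted p = 0.128, edgeR). Of 20 FGF pathway genes 4 were higher and none lower, and Fgfr2 measured 380.4 and 558 CPM in paw and 129 and 219 CPM in back (adjusted p = 0.178, edgeR). Fgfr2 is also on the basal keratinocyte list. It measured 2337 and 2007 CPM in paw IFE and 2316 and 2883 CPM in back IFE libraries, and the part of epidermal RNA in its difference was not tested. Cytosolic ribosomal protein genes had a median log2 fold change of 0.80 over 51 members, but -0.06 without paw Merkel library 1. Of these 51, 4 were higher and none lower, a share near that of all genes, and the same holds for the 3 higher of 51 oxidative phosphorylation genes (median 0.34). Of 32 early response and heat shock genes 4 were higher and none lower, with a median of 0.45.

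In the other direction, 4 of 34 neurotrophin and axon guidance genes were lower and none higher at an unadjusted p under 0.05. These stand beside 3.47% and 6.77% of all genes, and the list median was -0.49. Efna2, an ephrin ligand, measured 0.623 and 0 CPM in paw and 34.3 and 26.5 CPM in back Merkel libraries (adjusted p = 0.143, edgeR). Sensory neuron markers summed to 207.8 and 301 CPM in paw and 769.9 and 654 CPM in back Merkel libraries, against 2.77 to 10.9 CPM in IFE libraries. Pou4f1, a factor of sensory neurons, measured 41.9 and 132 CPM in paw and 375 and 322 CPM in back (adjusted p = 0.188, edgeR).

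Keratinocyte differentiation genes summed to 6714 CPM in paw Merkel library 1 and 647 CPM in paw Merkel library 2, against 2482 and 1703 CPM in back Merkel libraries, so the 2 paw libraries were the extremes. Immune markers summed to at most 24.7 CPM and endothelial markers to at most 17.6 CPM in any Merkel library. Melanocyte markers summed to 222 and 212 CPM in paw and 132 and 181 CPM in back Merkel libraries, and Schwann cell markers to 57.4 to 199 CPM over the 4.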
